A study of Drosophila melanogaster with 2 samples.

Results

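The genes described here are 4 of the families through which Drosophila melanogaster smells and tastes. These are the odorant receptor genes (Or, with the co-receptor gene Orco), the gustatory receptor genes (Gr), the ionotropic receptor genes (Ir) and the odorant binding protein genes (Obp). Members were taken from the gene annotation as every protein-coding gene whose symbol is Orco or begins with Or, Gr, Ir or Obp and then a digit. This gave 231 of the 13968 protein-coding genes of the chromosome arms, of which 60 are Or, 60 Gr, 60 Ir and 51 Obp genes. The protein studied was sugarbabe (sug), a GLIS-related transcription factor with zinc fingers, and its binding was measured by ChIP-seq, in which chromatin fragments held by a protein are precipitated and sequenced. The material was whole embryos of mixed sex, aged 8 to 24 hours, from a transgenic line in which GFP is fused to the C-terminus of sug, and an antibody against GFP was used on fragments of 200 to 800 bp. There was 1 group with 2 biological replicates, and no group without the tagged protein was analysed here.

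Or, Gr and Ir proteins are ligand-gated ion channels of sensory neurons. Most Or proteins work as complexes of Orco with a receptor that sets the odour response, and many Ir proteins likewise pair with broadly expressed co-receptors such as Ir25a. Gr proteins detect sugars, bitter compounds and, for Gr21a and Gr63a, carbon dioxide. Obp proteins are small secreted carriers that supporting cells release into the fluid around the sensory dendrites, and some are made in other tissues. In an embryo these cells are few, so in whole-embryo chromatin binding in a few cells and absence of binding cannot be told apart.

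Few of these genes had a sug-eGFP summit near a transcription start site (TSS). A gene was called bound if a summit of the authors' IDR set lay within 1 kb of any of its annotated TSSs. That set is deposited as thresholded on reproducibility between replicates. It holds the 9342 highest signals among the summits called on both replicates pooled, so a summit in it need not recur in each replicate. Of the 231 chemosensory genes, 10 were bound (4.33%, 95% Wilson interval 2.37 to 7.78%), against 5485 of all 13968 protein-coding genes (39.3%, 38.5 to 40.1%). They were Or88a, Or9a, Gr63a, Gr97a, Ir25a, Ir60e, Obp28a, Obp83g, Obp93a and Obp99c. The other 221 had no IDR summit in that window. The intervals cover counting error only, and since 104 of the chemosensory genes have another one's TSS within 5 kb, neighbours are not independent and the intervals can be too narrow. No test of the difference between gene lists was made.

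Among the families, 2 of 60 Or genes were bound (3.33%, 0.919 to 11.4%), as were 2 of 60 Gr and 2 of 60 Ir genes at the same share and interval. For the Obp genes the count was 4 of 51 (7.84%, 3.09 to 18.5%). All 4 intervals overlap one another, and all 4 lie below the 39.3% of all protein-coding genes. Chemosensory genes are short and mostly have a single TSS, and the part of gene length in the share was not tested. Their median length was 1506 bp, against 2164 bp for all protein-coding genes, and 209 of 231 had 1 annotated TSS (90.5%, against 73.5%). Of those 209, 8 were bound (3.83%, 1.95 to 7.37%), while the share among all protein-coding genes with 1 annotated TSS was 31.7%.

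**Figure D1:**
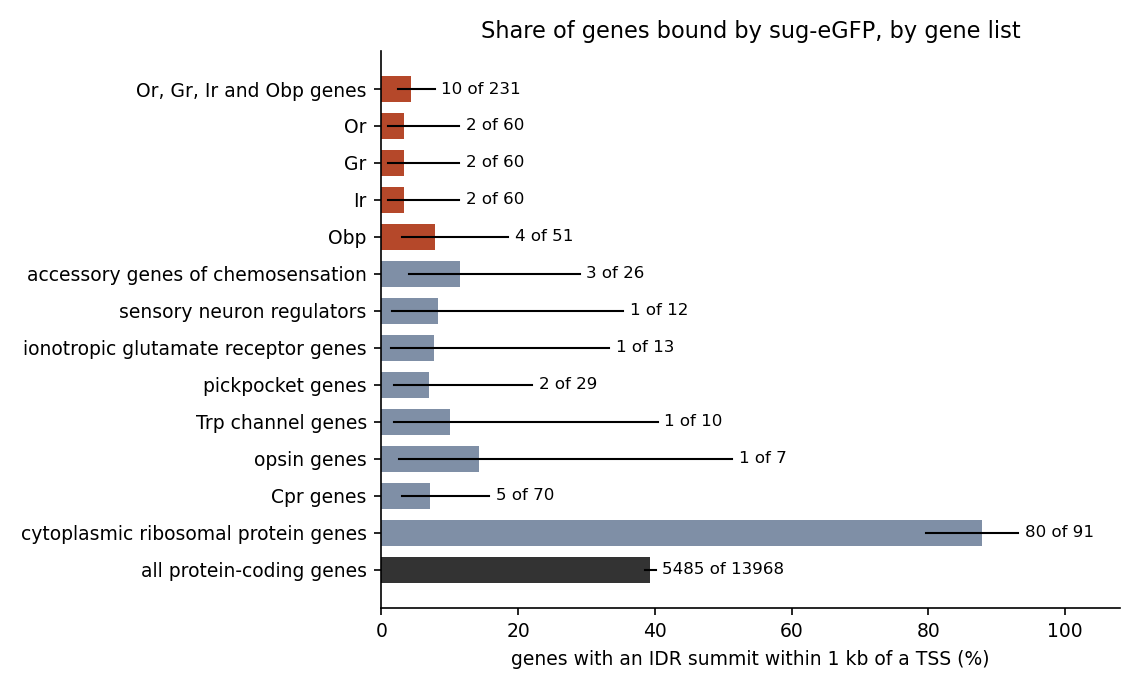
Percentage of genes called bound, by an IDR summit in the 1 kb window (x axis), for the 4 chemosensory families together and singly (red), other fixed gene lists (grey) and all protein-coding genes (black). Lines are 95% Wilson intervals and the counts stand beside them. The chemosensory families lie between 3.33% and 7.84%, the cytoplasmic ribosomal protein genes at 87.9% and all protein-coding genes at 39.3%.

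The 10 bound genes had 11 summits within 1 kb, of modest signal. The signal is the authors' score for a peak, scaled within its own list, and it is used here only to rank summits inside a list. Over the 11 summits its median was 284, with a range of 260.2 to 659, against a median of 424 and a range of 224 to 24384 over the whole IDR set. Of the 11, 4 lay above the IDR median. All 11 had a partner summit within 100 bp in the list of replicate 1, and 10 of 11 in that of replicate 2. The deposited −log10 q does not rank these summits, since it is 4.38 throughout the IDR set.

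Orco, the co-receptor gene of the odorant receptors, was not bound. Its nearest IDR summit lay 16556 bp from a TSS, and the nearest summit of the larger list that the authors called on both replicates pooled (30000 summits) lay 16355 bp away. The list of replicate 2 does hold a summit 820 bp from an Orco TSS, with rank 8410 of 30000 and a signal of 118 on that list's scale, and replicate 1 has a summit 211 bp from it. Orco is therefore a gene on which the replicate lists and the pooled list differ. None of 25 Or genes known from the larval olfactory organ was bound (0 of 25, Wilson upper limit 13.3%).

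Or88a (FBgn0038203, chr3R:14109445-14110823, plus strand) encodes a receptor of antennal trichoid neurons that detects fly-derived odours, and it had 2 IDR summits upstream of its single TSS. The stronger, at position 14108632, had a signal of 631 (rank 2666 of 9342) and lay 813 bp from the Or88a TSS and 311 bp from that of CG12402, which is transcribed the other way. It ranked 2448 in replicate 1 (signal 375) and 2723 in replicate 2 (signal 300.4). The weaker, at 14108845, had a signal of 276 (rank 7656), lay 600 bp from the Or88a TSS and 524 bp from that of CG12402, and ranked 8657 and 7039 in replicates 1 and 2. Both summits thus lie between the divergent start sites and nearer to CG12402. The sequence around the stronger summit is shown because it holds 2 of the words searched (chr3R:14108532-14108732, plus strand of dm6). Capitals mark GTGTGACC, the reverse complement of GGTCACAC, 91 bp from the summit, and GATAAG, 51 bp from it, both counted to the middle of the word.
Or88a and CG12402: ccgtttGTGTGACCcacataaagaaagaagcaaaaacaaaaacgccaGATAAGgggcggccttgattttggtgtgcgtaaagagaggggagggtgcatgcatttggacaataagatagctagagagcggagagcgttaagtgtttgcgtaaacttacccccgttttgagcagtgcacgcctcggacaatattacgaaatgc

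Or9a (FBgn0030204, chrX:10458186-10459676, minus strand), another antennal odorant receptor gene, had a summit at 10460665 with a signal of 574 (rank 3112). It lay 989 bp upstream of the Or9a TSS, just inside the window, and 71 bp from the TSS of Neb-cGP, a gene transcribed in the opposite direction. In the replicate lists it ranked 3440 in replicate 1 (signal 298) and 3032 in replicate 2 (signal 279). For neither Or gene was the receptor's own TSS the nearest to the summit.

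Gr63a (FBgn0035468, chr3L:3894999-3896603, minus strand) encodes a subunit of the carbon dioxide receptor, and its summit at 3896873 had a signal of 381 (rank 5342). The summit lay 270 bp upstream of the Gr63a TSS and 27 bp from the TSS of Lamtor4, which encodes a subunit of the lysosomal Ragulator complex. The 2 start sites are divergent and 297 bp apart. The summit ranked 6876 in replicate 1 (signal 178) and 4731 in replicate 2 (signal 199.8). Gr21a, which encodes the partner subunit, had its nearest IDR summit 8871 bp away, so only 1 of the 2 carbon dioxide receptor genes was bound. The word GGTCACAC, with its middle 24 bp from the summit, runs across the Lamtor4 TSS. It is given in capitals with the 30 bases that hold it (chr3L:3896883-3896912, plus strand).
Gr63a and Lamtor4: ggatctagtccGGTCACACtggtgggtgtg

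Gr97a (FBgn0041224, chr3R:26965124-26966485, minus strand) had the weakest of the 11 summits, at 26966949, with a signal of 260.2 (rank 8111). It lay 464 bp upstream of the Gr97a TSS and 19 bp from that of CG5521, in whose 5′ UTR it falls. It ranked 9767 in replicate 1, outside the 9342 highest there, and 6911 in replicate 2. The sugar receptor genes, a set of interest because sug is known for its induction by dietary sugar, were all without an IDR summit in the window. The nearest was 2574 bp away for the trehalose receptor gene Gr5a, 3696 bp for Gr61a and 25999 bp for the fructose receptor gene Gr43a. In the Gr64 cluster of sugar receptor genes the distance ran from 25832 bp for Gr64a to 32783 bp for Gr64f.

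The Obp genes include 2 of the 3 genes that were themselves nearest to their summit. Obp83g (FBgn0046875, chr3R:6111671-6112302, minus strand) had a summit at 6112559, 257 bp upstream of its TSS, with a signal of 461 (rank 4202), and ranks of 4313 and 4704 in replicates 1 and 2 (signals 256 and 201). It was the only bound gene of the 10 whose summit was nearest to its own TSS and whose signal exceeded the IDR median. The next TSS is that of Obp83ef at 1525 bp, and the nearest TSS outside the families is that of the non-coding lncRNA:CR44929 at 7696 bp. Obp99c (FBgn0039682, chr3R:29685736-29689311, minus strand) has 2 annotated TSSs. Its summit at 29686947 lay in an intron of the longer transcript, 163 bp upstream of the internal TSS at 29686784, with a signal of 282 (rank 7487) and ranks of 9509 and 6376 in replicates 1 and 2. No other gene's TSS lay within 4444 bp, the distance to Gycalpha99B. Counted from the gene's outer start alone, Obp99c was not bound.

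Obp83g and Obp99c were nearest to their own summits, which lie outside annotated UTRs, unlike that of Ir25a. For this reason sequences around the summits of Obp83g (chr3R:6112459-6112659) and Obp99c (chr3R:29686847-29687047) are shown, with that of Obp93a (chr3R:21130115-21130215) for contrast. All are on the plus strand of dm6 and run 100 bases to each side of the summit, except that of Obp93a, which ends at the summit. The Obp83g window holds none of the 8 words searched, and its GC content is 33.3%. In the Obp99c window capitals mark GATAAG, 2 bp from the summit, and its reverse complement CTTATC, 60 bp from it. In the Obp93a stretch they mark GTGTGACC, 35 bp from the summit.
Obp83g: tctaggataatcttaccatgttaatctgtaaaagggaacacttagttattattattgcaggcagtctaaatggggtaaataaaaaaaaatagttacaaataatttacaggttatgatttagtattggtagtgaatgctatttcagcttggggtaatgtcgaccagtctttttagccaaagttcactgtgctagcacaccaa
Obp99c: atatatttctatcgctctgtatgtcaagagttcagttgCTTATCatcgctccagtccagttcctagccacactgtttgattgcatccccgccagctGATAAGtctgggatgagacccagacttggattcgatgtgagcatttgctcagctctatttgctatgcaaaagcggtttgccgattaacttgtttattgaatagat
Obp93a and Ice2: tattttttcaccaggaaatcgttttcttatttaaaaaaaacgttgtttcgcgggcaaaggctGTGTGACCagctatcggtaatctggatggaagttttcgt

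Obp93a (FBgn0038859, chr3R:21128950-21129717, minus strand) had a summit at 21130215 with a signal of 284 (rank 7417), 498 bp upstream of its TSS. That summit stands 1 bp from the TSS of Ice2, a divergent gene for a factor of small nuclear RNA transcription. It ranked 5294 in replicate 1 and had no partner within 100 bp in replicate 2, the only one of the 11 without. On the other side of Obp93a, a summit of signal 11213, which ranks 11 in that set, lay 1921 bp from its TSS and 52 bp from that of CG5793. Obp28a (FBgn0011283, chr2L:7496791-7497365, minus strand), which encodes an abundant antennal binding protein, had the only one of the 11 summits that lay downstream, 965 bp from its TSS at 7496400. It lay 93 bp from the TSS of Ziz, a gene for a Dock-family exchange factor on the same strand, with a signal of 268 (rank 7886) and ranks of 6567 in replicate 1 and 16266 in replicate 2. A stronger IDR summit with a signal of 670.2 (rank 2455) lay just outside the window, 1165 bp downstream of the Obp28a TSS and 107 bp from that of Ziz. Among 9 antennal Obp genes Obp28a was the only one bound (11.1%, 1.99 to 43.5%). The gene lush, whose product binds the pheromone cVA, had its nearest IDR summit 6245 bp away.

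**Figure D2:**
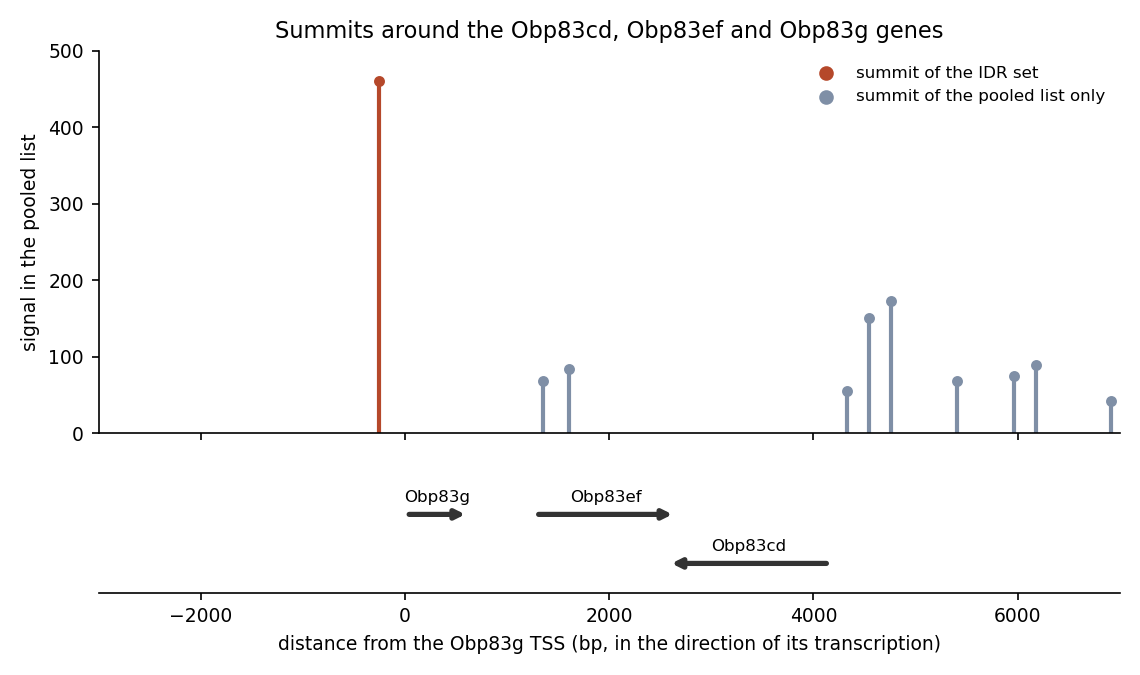
Summits around the Obp83cd, Obp83ef and Obp83g genes. The upper panel plots signal in the pooled list against distance from the Obp83g TSS in bp, with the summit of the IDR set in red and those of the pooled list alone in grey. The lower panel draws the genes to scale with arrows in their direction of transcription, and the red summit stands at 257 bp before Obp83g with a signal of 461, above every other summit in the region.

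Upstream of Obp83g a single IDR summit stood beside a cluster of related genes with weaker ones. In the direction of Obp83g transcription, Obp83ef begins 1268 bp after the Obp83g TSS, and Obp83cd, which runs the other way, spans 2569 to 4168 bp. Inside an intron of Obp83ef, 338 bp from its start, the pooled list has a summit of signal 83.8. For Obp83cd it has one of signal 173, at 593 bp upstream. Neither is in the IDR set, whose lowest signal is 224. Both had partners within 100 bp in replicates 1 and 2, at ranks 22645 and 18898 for Obp83ef and 14736 and 10192 for Obp83cd.

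Ir25a (FBgn0031634, chr2L:4830846-4835300, minus strand) encodes the most widely used co-receptor of the ionotropic receptors and was the third gene nearest to its own summit. The summit at 4835407 lay 107 bp upstream of its TSS, the shortest such distance among the 11, and 2592 bp from the TSS of tank, in whose 3′ UTR it falls. Its signal was 283 (rank 7475 of 9342), with ranks of 8812 and 8661 in replicates 1 and 2 (signals 142 and 115). The other co-receptor genes were not bound: the nearest IDR summit was 10684 bp from Ir8a, 14093 bp from Ir76b and 9381 bp from Ir93a. Ir25a was the only bound gene of 16 antennal Ir genes (6.25%, 1.11 to 28.3%). Ir60e (FBgn0035019, chr2R:24529554-24531272, minus strand), a member of the divergent part of the family, had the strongest of the 11 summits, at 24532039 with a signal of 659 (rank 2511). It lay 767 bp upstream of the Ir60e TSS and 73 bp from an internal TSS of CG13585. The summit falls inside an intron of CG13585, whose outer start is at 24531594. Its ranks were 1682 in replicate 1 and 3284 in replicate 2.

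**Figure D3:**
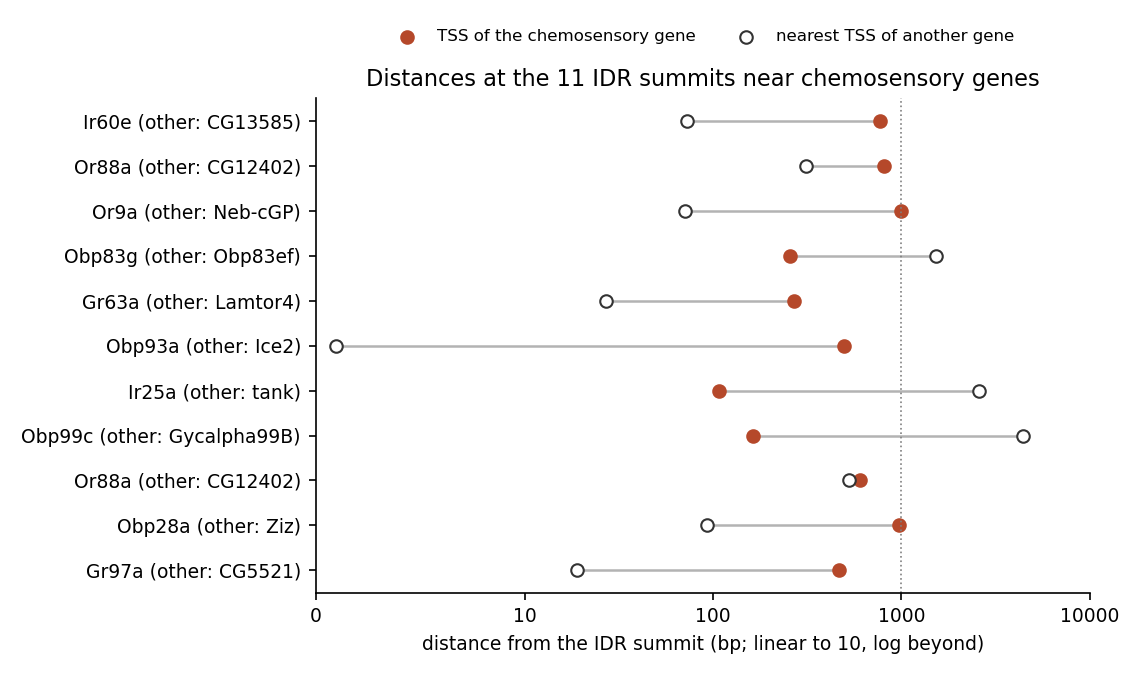
Distances at the 11 IDR summits, in order of signal from the strongest at the top. Filled circles give the distance from the summit to the TSS of the chemosensory gene and open circles that to the nearest TSS of another gene, in bp on an axis that is linear to 10 and logarithmic beyond. The dotted line is at 1000 bp, and the filled circle is the nearer one only for Obp83g, Ir25a and Obp99c.

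Over the 10 bound genes, the TSS of another gene was nearer at every summit in 7 (70.0%, 39.7 to 89.2%). Among all bound protein-coding genes this was so for 1313 of 5485 (23.9%, 22.8 to 25.1%), and among bound genes of the Cpr cuticle protein family for 3 of 5 (60.0%). In the 7 genes the summit lay 270 to 989 bp from the chemosensory TSS and 1 to 311 bp from the other, taking the stronger summit of Or88a. Between their closest start sites the pairs of genes were 297 to 1124 bp apart. Of the 7 pairs 6 were divergent, and 1, Obp28a with Ziz, was on the same strand. If each summit is given only to its nearest TSS, 3 of 231 chemosensory genes were bound (1.30%, 0.443 to 3.75%), and the share of all protein-coding genes was 29.9%. Which of 2 nearby genes a summit acts on, if any, cannot be told apart by distance.

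Chemosensory genes also have fewer close neighbours from outside the 4 families than protein-coding genes at large. Neighbours within the families were not counted here, and 24 of the 231 have another chemosensory TSS within 1 kb. A TSS of a gene outside the 4 families lay within 1 kb of a TSS of 46 of the 231 (19.9%), against 6676 of 13968 protein-coding genes with such a neighbour (47.8%). Of those 46, 4 were bound (8.70%, 3.43 to 20.3%), namely Ir60e, Gr63a, Obp93a and Gr97a, and none of the 4 was the gene nearest to its summit. Among all protein-coding genes with a neighbour 53.6% were bound. Of the 185 chemosensory genes without one, 6 were bound (3.24%, 1.49 to 6.89%), while 26.1% of all protein-coding genes without one were. With or without a neighbouring TSS, the chemosensory interval lies below the share of all protein-coding genes.

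**Figure D4:**
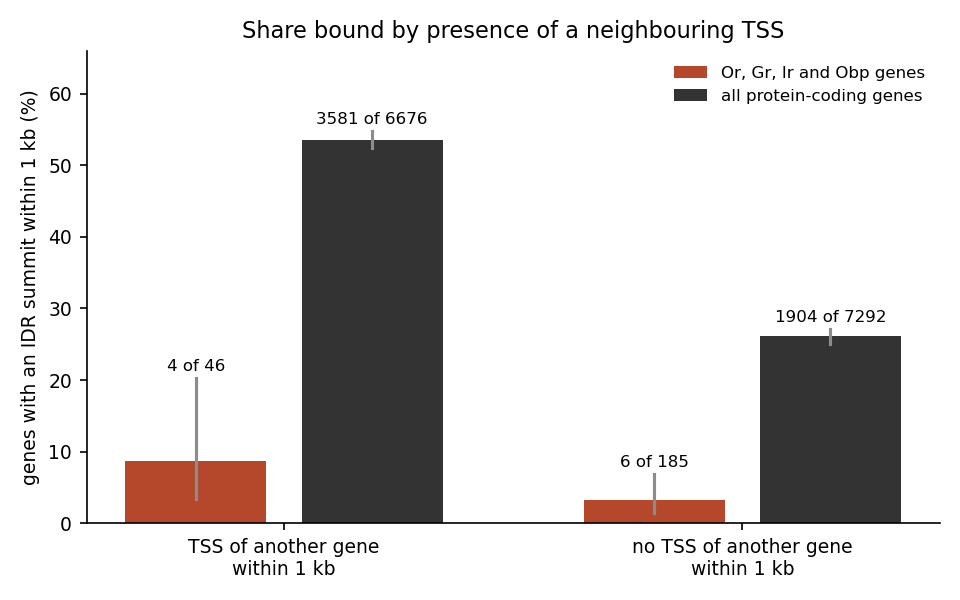
Share of genes with an IDR summit within 1 kb, in percent (y axis), for the Or, Gr, Ir and Obp genes (red) and all protein-coding genes (black), divided by whether the TSS of a gene outside the 4 families lies within 1 kb. Grey lines are 95% Wilson intervals. The red bars stand at 8.70% and 3.24%, the black ones at 53.6% and 26.1%.

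The nearest IDR summit was farther from chemosensory genes than from protein-coding genes at large. The median distance from a TSS to the nearest IDR summit was 12685 bp for the chemosensory genes (quartiles 6424 and 28864 bp), against 2812 bp for all protein-coding genes (164 and 12370 bp). By family it was 15758 bp for Or, 17160 bp for Gr, 12739 bp for Ir and 10924 bp for Obp genes. A long distance was not particular to these families, since the median was 10997 bp for the 70 Cpr cuticle protein genes. An IDR summit lay within 10 kb for 90 of the 231 (39.0%), against 71.4% of all protein-coding genes, and within 20 kb for 147 (63.6%), against 83.0%. Both shares include the 1 kb window. Of the 221 chemosensory genes without a summit in that window, 80 had one within 10 kb (36.2%, 30.1 to 42.7%), against 4491 of the 8483 such protein-coding genes (52.9%, 51.9 to 54.0%). In the gene itself, 2 of 231 had an IDR summit (0.866%), Obp99c and Ir68a, while 20.9% of all protein-coding genes did. In Ir68a, a gene of hygrosensory neurons, it lay in an intron 2475 bp from the TSS, with a signal of 281.

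**Figure D5:**
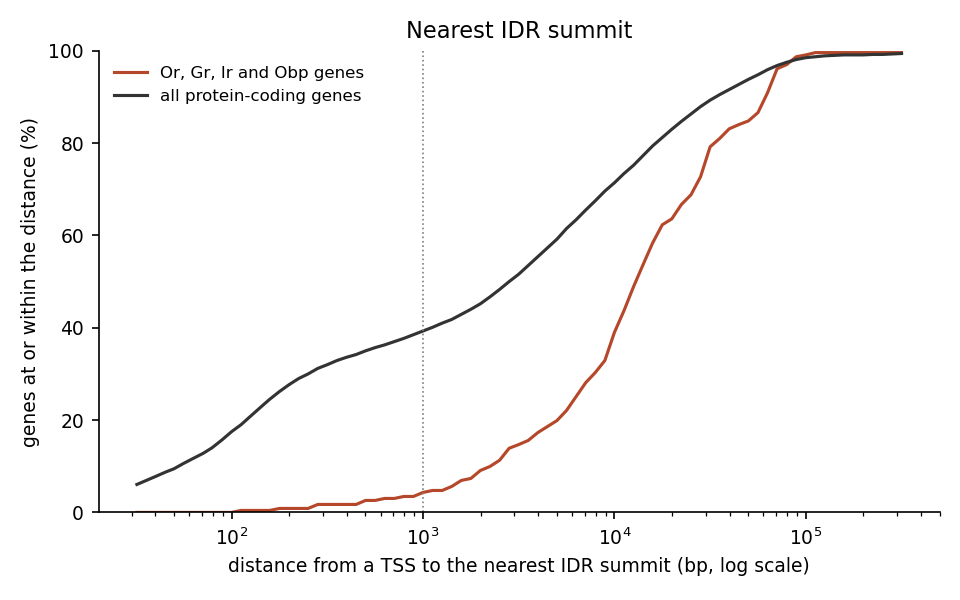
Cumulative share of genes, in percent (y axis), by distance from a TSS to the nearest IDR summit in bp on a log scale (x axis), for the Or, Gr, Ir and Obp genes (red) and all protein-coding genes (black). The dotted line is the 1 kb window, where the curves stand at 4.33% and 39.3%, and at 20 kb they stand at 63.6% and 83.0%.

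Just outside the window, 11 chemosensory genes had their nearest IDR summit between 1 and 2 kb away. At all 11 another gene's TSS was nearer (100%, 74.1 to 100%), and for 10 of the 11 it was a gene outside the families, no more than 595 bp from the summit. The same held for 653 of 838 protein-coding genes at that distance (77.9%, 75.0 to 80.6%). The closest were Or71a at 1016 bp, where the TSS of the centrosome gene Plp lay 38 bp from the summit, and Ir48c at 1339 bp, where that of the growth factor gene ths lay 466 bp away. Next came Gr39b at 1375 bp, with CG8665 at 146 bp, and Obp83ef at 1525 bp, whose summit is that of Obp83g.

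In the pooled list, with 30000 summits and no reproducibility threshold, 26 chemosensory genes were bound (11.3%, 7.80 to 16.0%), and the share of all protein-coding genes was 54.5%. They were 4 Or, 7 Gr, 4 Ir and 11 Obp genes, and the Obp share was 21.6% (12.5 to 34.6%). The 16 genes bound there but not in the IDR set were 2 Or, 5 Gr, 2 Ir and 7 Obp genes. The −log10 q of the strongest summit of each ran from 4.38 (Ir31a) down to 0.371 (Obp99b), so the lowest of these calls are weak. That Obp99b summit had no partner within 100 bp in either replicate list. Of these 16, 15 were nearest to at least 1 of their pooled summits (93.8%, 71.7 to 98.9%), with genes that share a TSS counted as nearest, against 86.4% of all protein-coding genes bound in the pooled list alone (84.9 to 87.8%). The highest signals were those near Ir31a, at 209.8, and Obp83cd, at 173. The Ir31a summit lay 372 bp upstream of its TSS and 10 bp from the shared TSS of CG17768 and LSm-4. Obp47b followed at 162, with its summit 704 bp from its TSS and 196 bp from that of CG7741. Gr10a and Or10a, which share their annotated span and TSS, had a summit of 149.8 at 984 bp, and the nearest other gene was Gs2 at 4426 bp. Of the 25 larval Or genes only Or45b, picked after its value was seen, had a pooled summit in the window. It had a signal of 70.6 at 843 bp and a low −log10 q of 0.937.

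Taken alone, the 9342 highest summits of each replicate gave similar counts but not all the same genes. Replicate 1 had 9 bound chemosensory genes (3.90%, against 37.4% of all protein-coding genes), of which 8 were among the 10. It missed Gr97a and Obp99c and added Gr32a, a gene for a bitter and pheromone receptor, with a summit 691 bp from its TSS. The TSS of Idua was nearer to that summit, at 262 bp, and the nearest summit of replicate 2 lay 6506 bp away. The Gr32a summit ranked 2532 in replicate 1 (signal 369), yet the nearest pooled summit lay 7198 bp from the Gr32a TSS. Replicate 2 had 10 (4.33%, against 40.1% of all protein-coding genes), of which 8 were among the 10. It missed Obp28a and Obp93a and added Orco and Obp99b. The Obp99b summit lay 238 bp from its TSS, with no other gene's TSS nearer than 1529 bp (CG15506), and the nearest summit of replicate 1 was 6167 bp away. It ranked 2834 in replicate 2 (signal 293), while the nearest pooled summit lay 862 bp from the Obp99b TSS, with a signal of 40.3. Orco is thus not the only gene on which these lists differ. By chromosome arm, 5 of the 10 lay on 3R, among 55 chemosensory genes there (9.09%), and 1 on 2R, among 75 (1.33%), against 40.1% and 41.8% of the protein-coding genes of those arms.

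Other genes of chemosensation and of sensory neurons were counted in the same window, for which 39.3% of all protein-coding genes were bound. Of 26 accessory genes, which encode other carriers and membrane proteins of taste and smell, 3 were bound (11.5%, 4.0 to 29.0%). CheA56a had a summit of signal 716 at 944 bp, with CG30122 nearer at 20 bp, CheB42c one of 401 at 70 bp, equally far from the TSS of mim, and Phk-3 one of 263 at 177 bp, nearest to its own TSS. Of 12 regulators of sensory neuron development, 1 was bound (8.33%, 1.49 to 35.4%). This was pdm3, a POU-domain factor known for odorant receptor choice in olfactory neurons, whose summit of signal 1844 (rank 447) lay 53 bp from its start site. Its summit was stronger than each of the 11 near the receptor and Obp genes.

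Ion channel and opsin genes outside the 4 families form short lists, and their intervals are wide beside that 39.3%. Among 13 ionotropic glutamate receptor genes, the relatives of the Ir genes, only Nmdar2 was bound (7.69%, 1.37 to 33.3%), with a signal of 299 at 555 bp. Of 29 pickpocket channel genes 2 were bound (6.90%, 1.91 to 22.0%), ppk29 with 683 at 667 bp, where the translation factor gene eEF5 was 6 bp from the summit, and ppk8 with 237 at 891 bp. The heat-gated channel gene pyx was the bound one of 10 Trp channel genes (1.79 to 40.4%), with 1355 at 600 bp, and CG33229 was nearer at 183 bp. Of 7 opsin genes Rh5 was bound (14.3%, 2.57 to 51.3%), with 1446 at 674 bp. The Trp and opsin intervals hold the share of all protein-coding genes. In the pooled list that share was 54.5%, and 4 of 10 Trp channel genes (40.0%, 16.8 to 68.7%) and 2 of 7 opsin genes (28.6%, 8.22 to 64.1%) were bound. The pickpocket genes stood at 24.1% there and the glutamate receptor genes at 15.4%. In a family of similarly clustered genes for a non-sensory role, the Cpr cuticle protein genes, 5 of 70 were bound by the IDR set (7.14%, 3.09 to 15.7%). These were Cpr73D with a signal of 491, Cpr67Fb with 393, Cpr72Ec with 314, and Cpr49Aa and Cpr49Ab, which share a summit of 268. The cytoplasmic ribosomal protein genes stood at the other end, with 80 of 91 bound (87.9%, 79.6 to 93.1%). The intervals of the accessory, regulator, glutamate receptor, pickpocket and Cpr lists lay below the share of all protein-coding genes and those of the Trp and opsin lists did not. Differences between these lists and the chemosensory families were not tested.

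Short words were searched on both strands in the promoter window of 250 bases before to 50 after each gene's start. TATCGATA, the word of the DRE element of housekeeping promoters, was found in 1 of 231 chemosensory promoters (0.433%), against 9.36% of all protein-coding promoters and 13.6% of those of bound genes. GGTCACAC, from the core promoter element Motif 1, was in 0 of 231, against 7.69% and 11.6%. GATAAG, the GATA factor word, was in 35 (15.2%), against 18.9% and 21.9%, and in 5 of the 10 bound chemosensory genes. GACCACCC, the GLI and GLIS factor word, was in 3 (1.30%), against 0.365% and 0.255%, and in 0 of the 10 bound chemosensory genes. For the remaining words the chemosensory share was 1.30% for CCCCCC (2.74% of all promoters), 3.46% for CACGTG (4.20%), 1.30% for GAGAGAG (5.86%) and 1.30% for CAGGTAG (1.64%). A promoter with several matches to a word, overlapping or not, counted once. Promoter GC content was alike, with a median of 39.3% for chemosensory genes and 38.0% for all protein-coding genes.

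Within 100 bp of the 11 summits the same words gave another picture. GGTCACAC was present at 3 of 11 (27.3%), against 2.89% of all 9342 IDR windows. These 3 are the sequences shown for Or88a with CG12402, Gr63a with Lamtor4 and Obp93a with Ice2, all summits nearer to the other gene. GATAAG was present at 2 of 11 (18.2%), against 25.8% of IDR windows. The other 6 words were at none of the 11. All 11 summits were taken for lying within 1 kb of a TSS, as 6054 of the 9342 IDR summits do. The shares for the 11 and for all IDR windows thus come from unlike windows, and their difference was not tested. A match is a description of the sequence and not evidence of a bound site.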

How the data were processed

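Chromatin from 2 biological replicates of 1 group was studied through 4 peak lists of dm6, 1 per replicate, 1 on both replicates pooled and the IDR set. Per the text files deposited with them, peaks were called against a control, which was not analysed here. For neither the aligner nor the peak caller is a name given in the sources used here. The authors deposited, for each peak, a signal (a score scaled within its list), a −log10 q and the offset of its summit. In 2 IDR rows the offset exceeded the interval, and the interval end was used. The replicate and pooled lists hold 30000 rows each, and all 9342 IDR rows are pooled rows, those of highest signal. No reproducibility value is given for a single summit. No read counts were given, so depth is unknown.

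TSSs came from the Ensembl annotation (release 115), for 18277 genes of the arms, and sequences from the RefSeq copy of dm6, at the starts of the Ensembl genes. In that sequence 13905 of 13968 protein-coding genes (99.5%) begin their coding sequence with ATG, and 0 IDR summits lie past a chromosome end. Coordinates are 1-based. Distances run from summit to nearest annotated TSS of a gene, and another gene was any other annotated gene, coding or not.

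The members and the lists were chosen with earlier results of these data known, so no p-values are given and shares are descriptions with 95% Wilson intervals beside the same share over all protein-coding genes. Named are all bound chemosensory genes, the 5 strongest bound only in the pooled list, the 4 nearest outside the window, Orco, the Ir co-receptor, carbon dioxide and sugar receptor genes, lush, and up to 5 bound genes of each list other than the ribosomal one. Ir68a, Gr32a, Obp99b and Or45b were named after their values were seen. Alternatives were other windows, lists and gene assignments. The code was tested on simulated data. Python 3.11.15, numpy 2.4.6, pandas 2.3.3, scipy 1.17.1 and matplotlib 3.10.9 were used.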

Additional observations from a re-analysis of the deposited data

How the results depend on the processing

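The chemosensory share bound, 4.33%, was below that of all protein-coding genes under each of the 9 alternatives. In what follows the share of all protein-coding genes stands in brackets. It was 1.73% among the 4671 IDR summits of higher signal (24.3%), 11.3% in the pooled list (54.5%) and 9.09% with a 2 kb window (45.3%). For a summit in the gene it was 0.866% (20.9%), and for the nearest TSS alone 1.30% (29.9%). It was 2.60% with a 500 bp window (35.0%) and 3.90% from the gene start alone (37.4%). Without replicate 2 it was 3.90% (37.4%), and without replicate 1 it was 4.33% (40.1%). The Or share fell to 0 with a 500 bp window, in the gene and by nearest TSS. The Gr share fell to 0 among those 4671, in the gene and by nearest TSS, and was 11.7% in the pooled list. The Obp share was 1.96% among those 4671 and in the gene, and 21.6% in the pooled list. Accessory genes stood at 3.85% among those 4671 and in the gene. The share of bound genes with another gene nearer was 26.9% in the pooled list. The same share over all protein-coding genes, 23.9% in the main setting, is not given for that list or for the other alternatives. Another gene was nearer for 5 of 10 bound genes without replicate 1 and for 3 of 6 with a 500 bp window. It was nearer for 3 of 4 among those 4671 and for 18 of 21 with a 2 kb window. Without replicate 2 the count was 7 of 9, and from the gene start alone it was also 7 of 9. With a neighbouring TSS the share bound was 2.17% among those 4671. Without one it was 10.8% in the pooled list and 7.57% with a 2 kb window. For these alternatives the shares of all protein-coding genes with and without a neighbour are not given. Of the 10 bound genes, 1 had its own TSS inside the peak interval. The causes were not tested. A neighbour window of 2 kb, chosen after seeing the data, gave 7.69% with a neighbour and 2.14% without, against 46.3% and 25.6% of all protein-coding genes. No paired analysis was possible because there is only 1 group. Depth is unknown, and 6 of the 10 genes were not bound among those 4671.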
